A study of Zea mays with 6 samples.

Results

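The genes described here are 6 of the 39283 genes in the deposited expression table of maize (Zea mays) seedlings given auxin. They were chosen by gene identifier: the GA 3-oxidase gene D1 (GRMZM2G036340), the early synthesis genes AN1 (GRMZM2G081554) and D5 (GRMZM2G093603), the GA 2-oxidase gene GA2ox1 (GRMZM2G031724) and the DELLA genes D8 (GRMZM2G144744) and D9 (GRMZM2G024973). The names AN1, D8 and D9 stand in the deposited table or in the RefSeq gene table, which lists D1 as Dwarf1. The names D5 and GA2ox1 came with the choice of identifiers and were found in neither for these genes. The roles of D5 and GA2ox1 also came with that choice and were not checked against an annotation here. Shoots of the inbred line B73, cut from greenhouse-grown seedlings 7 days old, were kept for 30 min in indole-3-acetic acid (IAA, the main natural auxin) with 1% DMSO, or in 1% DMSO alone as the control. The labels give the IAA dose as 100 mM, whereas the methods of the study give 100 μM. Each treatment had 3 samples of 3 plants. The authors' table holds 1 FPKM value per gene and treatment (sequenced fragments adjusted for transcript length and sequencing depth), pooled over the 3 samples. Values per sample, their spread and the depth per library are therefore unknown here, no test was run, and every difference below is a difference between pooled values without a replicate check. Since cut shoots hold many cell types, fewer expressing cells and less RNA per cell cannot be told apart.

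Gibberellins are diterpenoid hormones that promote the growth of stems and leaves, and maize mutants that cannot make them are dwarfs. The ring system is built in plastids by ent-copalyl diphosphate synthase and ent-kaurene synthase, cytochrome P450 enzymes oxidise it further, and GA 20-oxidases and GA 3-oxidases complete the bioactive forms, while GA 2-oxidases inactivate them. DELLA proteins restrain growth until gibberellin, bound by its receptor GID1, marks them for degradation. In pea and Arabidopsis, auxin is known to raise transcripts of late synthesis genes, and dominant alleles of maize D8 and D9 give dwarf plants that do not respond to gibberellin.

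Among the 6 genes, D1 stood apart with an FPKM 3.15 times the control after IAA, whereas the other 5 genes lay between 0.893 and 1.20 times the control. All 6 genes had a mean FPKM of at least 1 over both treatments, the minimum used for ratios, which 22506 genes met. Taking a ratio of at least 1.5 in either direction as a difference, 1 of the 6 genes was higher after IAA and none was lower. Over all 22506 genes, 4.1% were higher and 5.18% were lower by this rule. At a stricter limit of 2, again 1 of the 6 genes was higher and none was lower, beside 0.938% of all genes higher and 1.4% lower. At a looser limit, a log2 ratio of 0.32 in either direction, the count was again 1 higher and none lower, beside 11.8% of all genes higher and 15.7% lower. The median log2 ratio, IAA over DMSO, was 0.08 over the 6 genes and -0.04 over all genes that met the minimum. The genes were chosen with earlier results of these data known, so these counts describe the chosen genes and say nothing of other gibberellin genes.

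D1, which encodes the GA 3-oxidase that makes bioactive gibberellin from its direct precursors, lies on chromosome 3 of B73v3 from 10455337 to 10457618. Its pooled FPKM was 6.05 after IAA and 1.92 in the DMSO control, a difference of 4.13 FPKM and a log2 ratio of 1.66. Only 53 of the 22506 genes, or 0.235%, had a ratio at least as high, D1 included. In either direction, 119 genes, or 0.529%, had a ratio at least as far from 1. Ratios of low genes scatter more widely, so D1 was also set beside the 4102 genes whose mean FPKM lay within 1.5 times its own, from 2.66 to 5.98. The central 95% of their log2 ratios ran from -0.89 to 0.78, and 33 of them, or 0.804%, lay at least as far from 0 as D1 in either direction. Adding 1 FPKM to both values shrinks ratios of low genes and left a log2 ratio of 1.27 for D1. No other locus of the table overlaps D1, and the nearest genes lie 129082 bp below and 59866 bp above it. D1 had the lowest level of the 6 genes after IAA as well as in the control, and its share of their summed FPKM was 7.63% after IAA and 2.64% in the control.

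**Figure D1:**
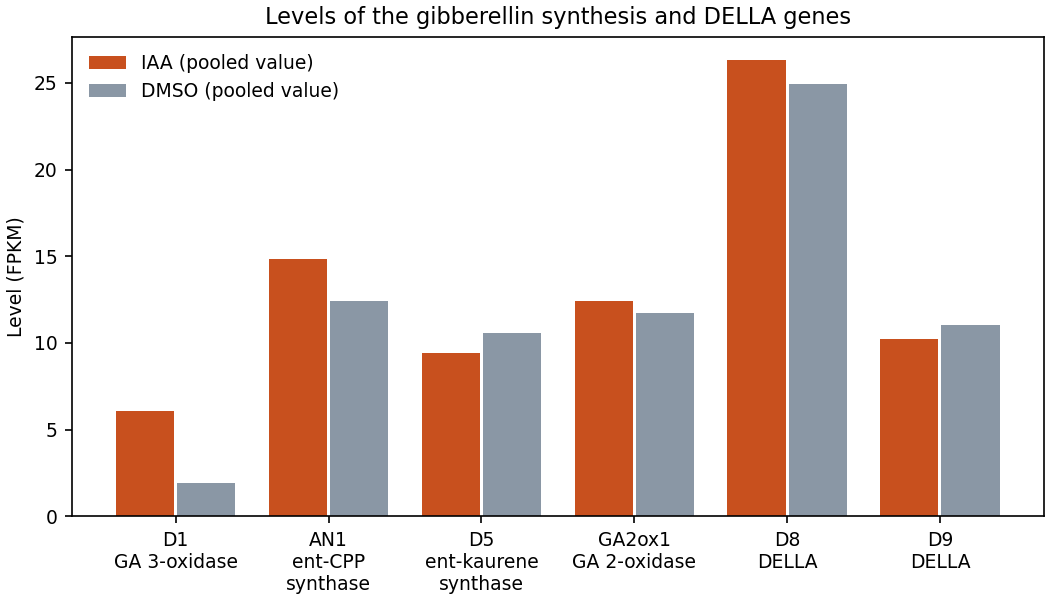
Pooled level in FPKM (vertical axis, from 0) of each of the 6 genes, with 1 bar per treatment, IAA on the left and DMSO on the right. No error bars can be drawn, since the table holds 1 value per gene and treatment. D1 stands at 6.05 after IAA and 1.92 in the control, while the bars of each other gene are close in height.

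AN1, and D5 by the role given for it, act at the first committed steps, upstream of D1. AN1, the ent-copalyl diphosphate synthase gene affected in the anther ear dwarf mutant, lies on chromosome 1 from 241277428 to 241285679. Its pooled FPKM was 14.8 after IAA and 12.4 in the control, a log2 ratio of 0.26, and 36.1% of all genes had a ratio at least as far from 1. D5, given as an ent-kaurene synthase gene, lies on chromosome 2 from 10562532 to 10567539. It had 9.43 FPKM after IAA and 10.6 FPKM in the control, a log2 ratio of -0.16, and 54.9% of all genes lay at least as far from 1. The ratios of AN1 and D5 thus pointed in opposite directions, each well inside the range of genes of like level, which ran from -0.63 to 0.59 around AN1 and from -0.66 to 0.63 around D5. The nearest gene to D5 lies 657 bp away, and neither AN1 nor D5 overlaps another locus.

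GA2ox1, given as a GA 2-oxidase gene and so acting against D1, lies on chromosome 8 from 173402117 to 173404386. Its FPKM was 12.4 after IAA and 11.7 in the control, a log2 ratio of 0.08, and 76.1% of all genes had a ratio at least as far from 1. The level of D1 relative to that of GA2ox1 in the same treatment was 0.486 after IAA and 0.163 in the control. Between the treatments, GA2ox1 differed by 0.695 FPKM and D1 by 4.13 FPKM.

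The DELLA genes encode repressors of the gibberellin response. D8, on chromosome 1 from 266160101 to 266163168, had the highest level of the 6 genes, with 26.4 FPKM after IAA and 24.9 FPKM in the control. Its log2 ratio was 0.08, and 77.1% of all genes lay at least as far from 1. D9, on chromosome 5 from 11793473 to 11795945, had 10.2 FPKM after IAA and 11.0 FPKM in the control, a log2 ratio of -0.11, with 69.5% of all genes at least as far from 1. Summed over both DELLA genes, the level was 36.6 FPKM after IAA and 35.9 FPKM in the control. D8 stood at 2.58 times the level of D9 after IAA and at 2.27 times in the control. D8 and D9 are duplicate genes of similar sequence, among which reads could have been split, so their separate levels are less certain than their sum. These are transcript levels, and the degradation of DELLA proteins was not measured.

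**Figure D2:**
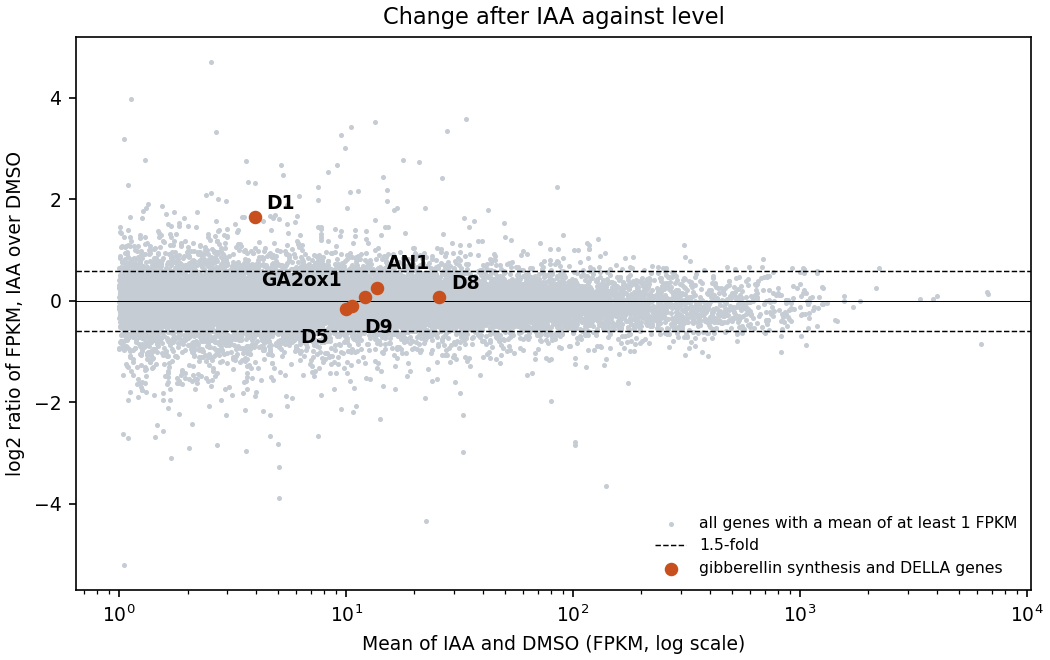
The log2 ratio of FPKM, IAA over DMSO (vertical axis), against the mean FPKM of both treatments (horizontal axis, log scale) for the 22506 genes with a mean of at least 1 FPKM. Grey points are genes, orange points are the 6 gibberellin genes, and dashed lines mark a ratio of 1.5 in each direction. D1, at 1.66, lies above the upper line, and the other 5 genes lie between the lines.

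The order of levels was the same in both treatments: D8, AN1, GA2ox1, D9, D5 and then D1. After IAA, AN1, GA2ox1, D9 and D5 spanned 14.8 to 9.43 FPKM, and in the control 12.4 to 10.6 FPKM. Without a spread over samples it is not known which neighbours in this order differ. The 5 genes other than D1 summed to 73.3 FPKM after IAA and 70.6 FPKM in the control.

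The name tables pair 6 more identifiers with symbols taken here as gibberellin synthesis names, and 3 of them met the minimum of 1 FPKM. None of these 3 was higher or lower by a ratio of 1.5, and their log2 ratios ran from -0.05 to 0.57. The nearest to that limit was d3 (GRMZM2G093195), the gene of the cytochrome P450 CYP88A1, which oxidises ent-kaurenoic acid between the AN1 and D1 steps. It had 16.1 FPKM after IAA and 10.8 FPKM in the control, a ratio of 1.49, just short of the limit. With the median log2 ratio of all genes set to 0, its log2 ratio was 0.61, and with equal FPKM totals 0.64, both past the limit. Each scaling raises the log2 ratio of every gene by the same amount. The gene listed as KS or eks1 (GRMZM2G049538), an ent-kaurene synthase by its name, had 21.6 FPKM after IAA and 18.1 FPKM in the control, a log2 ratio of 0.26. It lies 35179 bp from D5 on chromosome 2 with 1 gene between them, and similar copies there could share reads. The gene listed as CPS1 (GRMZM2G156565), whose product the tables do not describe, had 13.0 FPKM after IAA and 13.5 FPKM in the control. Its log2 ratio of -0.05 turned to 0.01 with equal FPKM totals. CPS1 was counted by this symbol alone and may not be a gibberellin gene, so the pathway counts that include it are less certain.

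The other 3 were near or at the bottom of the scale. Transcripts of an2 (GRMZM2G044481), a second ent-copalyl diphosphate synthase gene known in maize for making defence diterpenoids, stood at 0.169 FPKM after IAA and 0.122 FPKM in the control. KSL4 (GRMZM2G016922) had 0.0742 FPKM after IAA and 0.125 FPKM in the control. The gene listed as ga3ox2 (GRMZM2G044358), a GA 3-oxidase gene by its name like D1, was listed at 0 in both treatments, so D1 was the only GA 3-oxidase gene by name with a value above 0. No identifier was paired with a GA 20-oxidase, gibberellin receptor or GASA name in the tables used, and these genes were not analysed here.

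**Figure D3:**
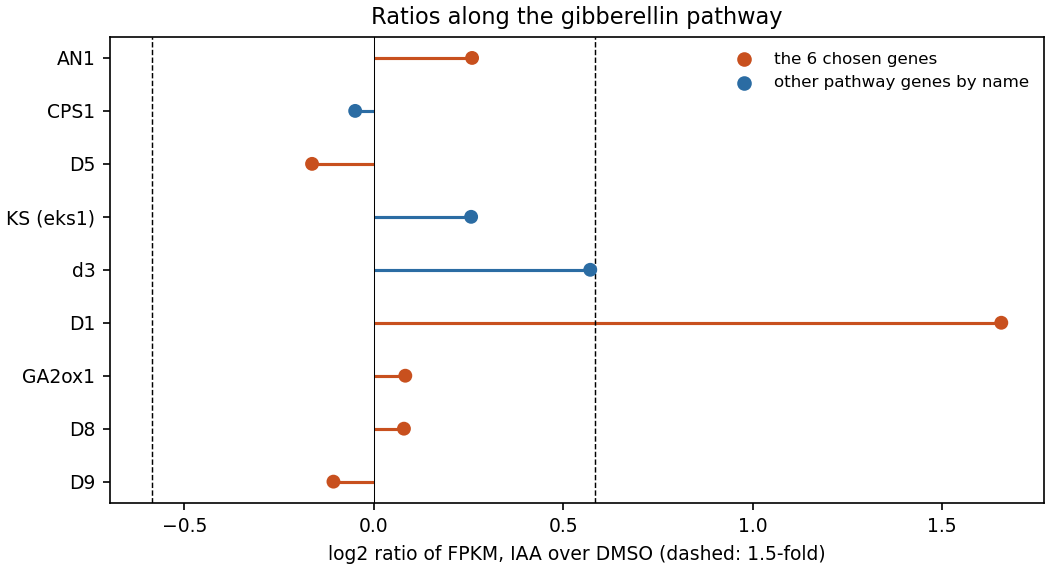
The log2 ratio of FPKM, IAA over DMSO (horizontal axis), for the 6 chosen genes (orange) and the 3 other pathway genes by name with a mean of at least 1 FPKM (blue), from early synthesis at the top to DELLA at the bottom. Dashed lines mark a ratio of 1.5. CPS1 is included by its symbol alone. D1 at 1.66 lies past the line, d3 at 0.57 just short of it, and the remaining 7 genes lie between -0.16 and 0.26.

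DELLA proteins belong to the GRAS family of transcriptional regulators, and 5 further identifiers carry a GRAS or scarecrow name. Of these, 4 met the minimum, and their log2 ratios ran from -0.20 to 0.07, with 2 above 0 and 2 below, none past a ratio of 1.5. Their summed FPKM, the low gene included, was 32.7 after IAA and 32.7 in the control. D9, at -0.11, lay within this range and D8, at 0.08, just above it.

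Known auxin response genes were looked at as a check of the treatment. The outcome was known beforehand, since the study reports Aux/IAA, SAUR and GH3 genes among those raised in this experiment. IAA12, a repressor gene of auxin signalling, stood at 51.1 FPKM after IAA and 18.7 FPKM in the control. GH3, named for enzymes that conjugate auxin, stood at 50.5 FPKM after IAA and 4.95 FPKM in the control, and saur3, of the small auxin up RNA family, at 17.6 FPKM after IAA and 2.19 FPKM in the control. The ratio of D1, at 3.15, was above that of IAA12, at 2.74, and below those of saur3, at 8.07, and GH3, at 10.2. With 1 FPKM added to both values, the ratio of D1 fell to 2.41. This setting was not computed for IAA12, a gene of higher level, so the order of D1 and IAA12 is uncertain. Of 16 genes found by leaf and shoot marker symbols, 13 were above 100 FPKM in both treatments, whereas 27 of 28 endosperm and seed markers, all 25 zein genes among them, did not reach a mean of 1 FPKM. The exception was bt2, a starch synthesis gene, at 16.8 FPKM after IAA and 17.9 FPKM in the control. Of 15 tassel and ear markers, 12 did not reach that mean either, and the highest was zmm19 at 9.59 FPKM after IAA and 9.17 FPKM in the control. The summed FPKM of the leaf and shoot list was 16269 after IAA and 13897 in the control. The FPKM total over all genes after IAA was 95.6% of that in the control. By a ratio of at least 1.5, 3 of the 16 leaf and shoot genes were higher and none was lower. Over all genes that met the minimum, 4.1% were higher and 5.18% were lower. The 4 shoot meristem markers stood at 1.18 to 4.71 FPKM after IAA and 1.29 to 4.83 FPKM in the control. All 4 had a log2 ratio below 0, from -0.28 to -0.04, beside 55.5% of all genes, but 3 of 4 under either scaling, where lg3 turned to 0.0023 with the median of all genes set to 0 and to 0.03 with equal FPKM totals. Of the 4 root markers, 3 were below 1 FPKM and rth3 stood at 8.70 FPKM after IAA and 11.1 FPKM in the control. The part of these marker differences in the D1 value was not tested.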

How the data were processed

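RNA-seq was done on 3 samples per treatment. Per the methods of the study, reads were trimmed with trimmomatic, mapped to B73v3 with Tophat and compared with cuffdiff. The submitters' processing notes name TopHat2 2.1.1 and Cuffdiff 2.2.1. The FPKM values were deposited as 1 estimate for each gene in each treatment, made over the replicates. The deposited fold changes, test statistics, p-values and q-values are the authors' own comparison and were not used. Libraries were stranded, but whether counting used strand is not given in the sources used here.

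Ratios, IAA over DMSO, were computed from these values as deposited, where the FPKM averaged 1 or more over both treatments and neither value was 0. A ratio of at least 1.5 in either direction was taken as a difference. The 6 genes and the lists were chosen with earlier results of these data known. All 6 are described whatever their values. Of the other pathway genes, those past the limit and the highest of each class were to be named. The remaining ones, and single marker genes, were named after their values were seen. With 2 pooled values per gene, likeness of pattern between genes could not be measured. Names came from the deposited table and the RefSeq table of Zm-B73-REFERENCE-NAM-5.0, which holds 18994 of the identifiers and 5 of the 6 genes. Its coordinates were not used. Coordinates count from 1, so 1 was added to each deposited locus start. Marker symbols were matched as written, and some of the genes found may only share a symbol. The counting steps were tested only on simulated data with less scatter than the real ratios. That test cannot show how often the ratio limit is passed through scatter in these data. Calculations used pandas 2.3.3 and numpy 2.4.6 under Python 3.11.15, and plots matplotlib 3.10.9.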

Additional observations from a re-analysis of the deposited data

How the results depend on the processing

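No paired analysis was possible because the deposited values are pooled over the replicates of a treatment, and no replicate could be left out. The D1 log2 ratio lay between 1.27 and 1.72 over pseudocounts of 1 and 0.1 FPKM, a median of 0 for all genes and equal FPKM totals, and 1 of the 6 genes, D1, was past the limit under each of these, without the minimum FPKM and at the looser and stricter limits. With a mean of at least 5 FPKM, D1 drops out by construction. Of the genes left, 0 of 5 chosen genes and 0 of 8 pathway genes were past the limit. Past a ratio of 1.5, D1 was the 1 gene of 9 pathway genes by name, CPS1 included. The count was 2 with the median of all genes set to 0 and with equal FPKM totals, where d3 joined D1. At the looser limit, a log2 ratio of 0.32, which 11.8% of all genes passed as higher, the count was also 2, d3 and D1. It was also 2 without the minimum FPKM, where KSL4, at only 0.0742 FPKM after IAA and 0.125 FPKM in the control, joined D1 as lower. Shares of all genes were computed only for the main setting and the other ratio limits. Counts under the scalings, the pseudocounts and other FPKM minimums therefore have no such share beside them. The median log2 ratio was 0.12 with the median of all genes set to 0 and 0.15 with equal FPKM totals, for the 6 genes as for the pathway genes. Other settings left both medians at 0.08. None of the 6 genes changed direction under these scalings. What depth limits could not be measured, since the libraries' sizes are not known.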
